A study of Mus musculus with 6 samples.

Results

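The genes described here are the protein-coding genes of the BCL2 family, the caspases and the other core apoptosis genes, taken from a count table of 26743 genes by their symbols. A gene was a member when its symbol began with Bcl2, with Casp and a digit or with Birc and a digit, or was Bax, Bak1, Bok, Bid, Bad, Bik, Bmf, Bbc3, Pmaip1, Mcl1, Apaf1, Xiap, Fas or Fasl, with Birc5 left out. This gave 39 genes, and the rule itself uses symbols and no expression values. They were measured by RNA-seq of whole testes from 3 WT and 3 Trf2-/- mice, all killed at postnatal day 21. Trf2 (TBP-related factor 2, gene symbol Tbpl1) is a relative of the TATA-binding protein, and males without it are sterile because haploid spermatids stop developing. The age was chosen by the study as one at which the first round spermatids have formed and have not yet begun to die. The labels give the genotypes and the age and name no litter, extraction or sequencing batch. A 129/SvPas background is given in the study's methods where the tagged Trf2 mice are described, and not separately for the mice used here.

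Apoptosis removes cells through caspases, proteases made as inactive precursors. In the mitochondrial route, anti-apoptotic proteins such as BCL2, BCL-XL and MCL1 hold back the pore-forming effectors BAX and BAK1, the BH3-only proteins release that hold, and cytochrome c leaving the mitochondria joins APAF1 to activate caspase 9 and then the executioner caspases. In the death receptor route, FAS activates caspase 8, while inhibitor of apoptosis proteins restrain the caspases at the end of both routes. In the testis, BAX and its inhibitors set how many germ cells survive the first wave of spermatogenesis.

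The reads counted on genes ranged from 21582123 to 29859347 in WT mice and from 15187062 to 24530489 in Trf2-/- mice. Tbpl1 itself stood at 295 ± 12.5 CPM in WT and 61.0 ± 4.60 CPM in Trf2-/- testis (CPM, counts scaled to the TMM-adjusted size of each library, SD, n = 3 each), a log2 fold change of -2.27 (edgeR quasi-likelihood test, adjusted p = 1.18e-06), which fits the labels. The listed spermatocyte markers were present in every mouse, with summed levels between 5115 and 6961 CPM. Some weak round spermatid markers had 0 reads in Trf2-/- mice, among them Acrv1 and Catsper3 in mouse 3. Trf2-/- mouse 1 stood apart in markers of immune cells. Its summed macrophage markers reached 475 CPM against 234 and 284 CPM in the other Trf2-/- mice and 206 to 231 CPM in WT mice, and its summed neutrophil markers reached 5.63 CPM against at most 1.25 CPM elsewhere. Since the samples are whole testes, fewer cells of a type and less RNA per cell cannot be told apart.

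Of the 39 genes, 33 had enough reads to be tested among 16924 genes, and 6 did not. By the quasi-likelihood test of edgeR, adjusted over all tested genes by the Benjamini-Hochberg method, 5 were lower in Trf2-/- testis, Bcl2l1, Bcl2l12, Bcl2l13, Bcl2l14 and Birc2, and 6 were higher, Bcl2l2, Bcl2l11, Apaf1, Casp1, Birc6 and Xiap. Among all tested genes 20.2% were lower and 11.2% were higher at the same adjusted p under 0.05. The members past the threshold were therefore 33.3% of those tested, close to the 31.4% of all tested genes past it in either direction. The changes were small. Only Bcl2l14 was lower by at least 2-fold, a change that 4.3% of all tested genes showed, and only Casp1 was higher by at least 2-fold, as were 0.609% of all tested genes. The genotypes did not overlap for 18 of the tested members, 7 lower and 11 higher in all Trf2-/- mice, and 49.2% of all tested genes separated in this way. The median log2 fold change was 0.11 over the tested members and 0.037 over all tested genes. Without WT mouse 2 the members higher numbered 2, Apaf1 and Xiap, and those lower were still 5. In that fit 4.54% of all tested genes were higher and 15.7% lower. The balance of the directions depends on the scaling: with library size in place of TMM factors, 4 members were lower and 12 higher, and over all genes the counts went from 3423 lower and 1889 higher to 2691 lower and 4267 higher.

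**Figure D1:**
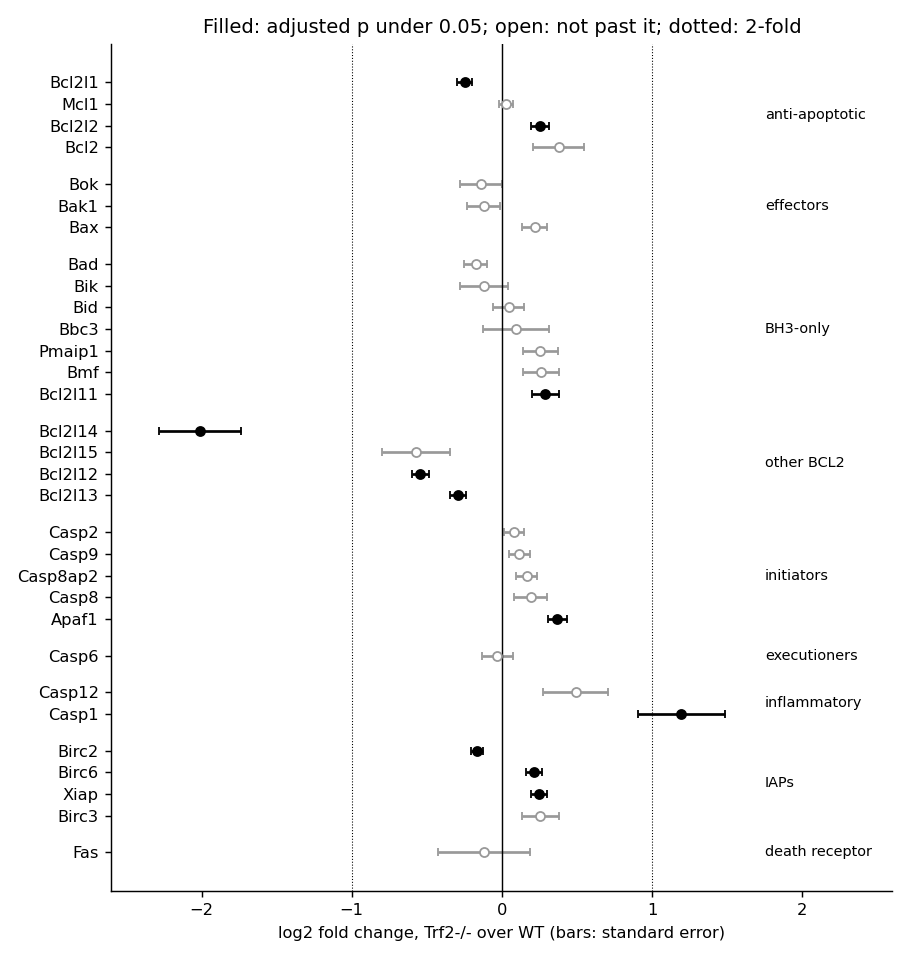
Log2 fold change of Trf2-/- over WT testis (horizontal axis) for 31 tested genes, grouped by role, with the standard error as bars (3 mice per genotype). Filled points passed an adjusted p under 0.05 and open points did not. Bcl2l14, at -2.01, and Casp1, at 1.19, lie past the dotted lines that mark a 2-fold change, and all other genes shown lie between them.

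Levels of different genes were compared only after division by gene length. In WT testis the highest was Birc2, an inhibitor of apoptosis protein, at 77.2 ± 1.12 CPM per kb (SD, n = 3). Bcl2l12 followed at 55.9 ± 1.45, Mcl1 at 43.7 ± 1.06, Bcl2l1 at 30.7 ± 0.824 and Bad at 23.0 ± 0.681 CPM per kb. The pore-forming effectors were lower, with Bax at 12.0 ± 0.332, Bak1 at 6.16 ± 0.151 and Bok at 5.59 ± 0.625 CPM per kb. The executioner caspase Casp6 had a level of 8.10 ± 0.537 CPM per kb. At the bottom of the tested genes stood Bcl2l14 at 0.508 ± 0.123, Bcl2 at 0.477 ± 0.0609 and Casp1 at 0.357 ± 0.0745 CPM per kb, so that both genes past a 2-fold change are weakly expressed. In WT testis the transcripts of Mcl1 and Bcl2l1 thus stood far above that of Bcl2, the family's founding anti-apoptotic member, per length of gene.

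**Figure D2:**
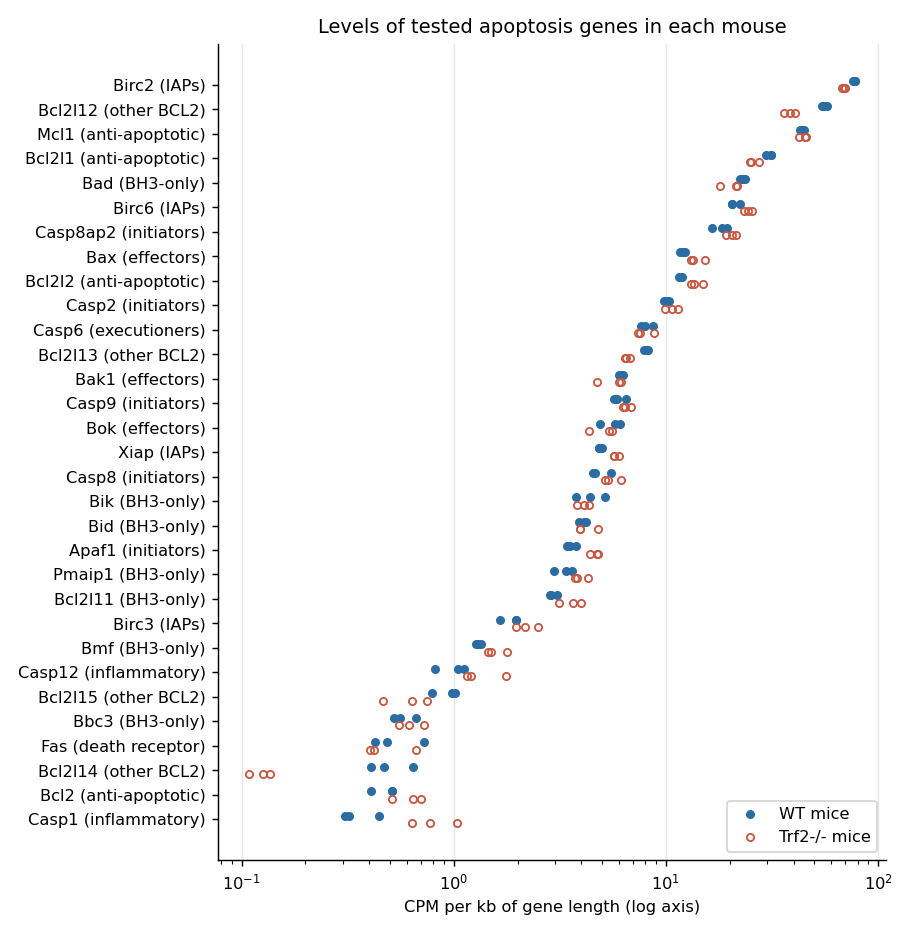
Level of 31 tested genes in each mouse, as CPM per kb of gene length on a log axis, ordered by the WT mean, with 3 WT mice (filled) and 3 Trf2-/- mice (open). Birc2 is highest at 77.2 CPM per kb in WT and Casp1 lowest at 0.357, and only for Bcl2l14 do the Trf2-/- points lie far to the left of the WT points.

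The 4 anti-apoptotic genes that were tested moved in different directions. Bcl2l1, which encodes BCL-XL, measured 148, 147 and 141 CPM in WT mice 1 to 3 and 119, 129.6 and 118 CPM in Trf2-/- mice 1 to 3. All Trf2-/- mice were below all WT mice, and the gene fell by 15.8% (log2 fold change -0.25 ± 0.05 (SE), adjusted p = 0.00677), or -0.15 with an adjusted p of 0.0387 when scaled by library size alone. Bcl2l2, which encodes BCL-W and is required for germ cell survival in the adult mouse testis, measured 50.8, 49.3 and 49.8 CPM in WT and 56.4, 58.3 and 64.2 CPM in Trf2-/- testis. It was higher in every Trf2-/- mouse and rose by 19.1% (log2 fold change 0.25 ± 0.06, adjusted p = 0.0140), though without WT mouse 2 its adjusted p was 0.0606. Mcl1, whose short-lived protein protects many cell types, stood at 148, 153 and 156 CPM in WT and at 158, 159.6 and 148 CPM in Trf2-/- testis, so the genotypes overlapped. Its log2 fold change of 0.028 had a 95% interval from -0.065 to 0.12. Bcl2 itself measured 3.69, 3.68 and 2.93 CPM in WT and 5.04, 4.63 and 3.67 CPM in Trf2-/- mice, with WT mouse 1 just above Trf2-/- mouse 3. Its log2 fold change of 0.38 did not pass the test (adjusted p = 0.121), and without Trf2-/- mouse 3 it did, at 0.49 and an adjusted p of 0.0471. The remaining 2 anti-apoptotic genes were near 0: Bcl2a1b had at most 2 reads in any mouse and Bcl2l10, an oocyte-enriched gene, 1 read in a single Trf2-/- mouse. Bcl2a1b has near-identical neighbouring copies and shares exon bases with Mthfs on the same strand, so its counts are uncertain.

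None of the 3 pore-forming effectors passed edgeR's test or the Wald test of DESeq2, and at an unadjusted p under 0.05 there was 1, Bax. Bax measured 16.4, 15.6 and 16.2 CPM in WT and 18.0, 17.7 and 20.5 CPM in Trf2-/- testis. All Trf2-/- mice lay above all WT mice, with a log2 fold change of 0.22 ± 0.08 (adjusted p = 0.0800), and with library size as the only scaling the gene passed at 0.31 and an adjusted p of 0.0207. Bak1 stood at 15.2, 14.9 and 14.4 CPM in WT and at 14.5, 14.7 and 11.4 CPM in Trf2-/- testis, with its lowest value in Trf2-/- mouse 3 (log2 fold change -0.12, adjusted p = 0.413). Bak1 shares 14.8% of its exon bases with Ggnbp1 on the opposite strand, an abundant transcript that was itself lower by at least 2-fold, and whether reads were counted by strand is not given in the sources used here. Bok lay between 7.00 and 8.73 CPM in WT and between 6.19 and 7.96 CPM in Trf2-/- testis (adjusted p = 0.480).

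The ratio of an effector to an inhibitor is a common summary of the family, and was computed per mouse. The log2 ratio of Bax to Bcl2l1 counts was -3.17, -3.25 and -3.12 in WT mice and -2.72, -2.88 and -2.53 in Trf2-/- mice, without overlap. Its mean was 0.47 higher in Trf2-/- testis, or 1.38-fold, made up of the lower Bcl2l1 and the value of Bax. The log2 ratio of Bax to Bcl2 lay between 2.08 and 2.47 in WT and between 1.84 and 2.48 in Trf2-/- testis and overlapped. These ratios are descriptions, since 3 mice against 3 cannot give an exact permutation p under 0.1.

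Of the 7 BH3-only genes, 1 rose and 6 did not pass, and scaled by library size alone Bmf (adjusted p = 0.0431) and Pmaip1 (adjusted p = 0.0365) passed as well. Bcl2l11, which encodes BIM, stood at 24.6, 22.9 and 23.2 CPM in WT and at 25.3, 31.9 and 29.3 CPM in Trf2-/- mice. The lowest Trf2-/- mouse was only just above the highest WT mouse, and the log2 fold change of 0.29 ± 0.09 had an adjusted p of 0.0384. This call was lost without any one of the 3 WT mice or of Trf2-/- mice 2 and 3, with adjusted p from 0.0559 to 0.126. Bad, whose protein is inactivated by survival signals through phosphorylation, measured 44.8, 46.1 and 47.5 CPM in WT and 43.4, 42.8 and 36.1 CPM in Trf2-/- testis. The genotypes did not overlap and the log2 fold change of -0.17 had an adjusted p of 0.111. Of Bad's exon bases 25.8% lie opposite Gpr137, at a log2 fold change of -0.39 (adjusted p = 0.00335). Bid, which links caspase 8 to the mitochondria, stood at 13.1, 13.8 and 14.0 CPM in WT and 13.2, 13.2 and 15.9 CPM in Trf2-/- mice (log2 fold change 0.045, 95% interval -0.15 to 0.24). Bmf and Pmaip1 (NOXA) were each higher in all Trf2-/- mice, at 7.63 to 9.36 against 6.73 to 7.09 CPM and at 9.82 to 11.3 against 7.81 to 9.50 CPM, with adjusted p of 0.123 and 0.122. The p53 target Bbc3 (PUMA) was weak in both genotypes, at 1.06 to 1.34 CPM in WT and 1.11 to 1.45 CPM in Trf2-/- testis, and Bik overlapped as well.

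The other genes named for BCL2 included Bcl2l12 and Bcl2l14, whose adjusted p were the smallest among the members. All 4 had lower levels in every Trf2-/- mouse than in any WT mouse, and 3 of them passed the test. Over all 16924 tested genes, 4540 were lower without overlap and 20.2% passed the test as lower. Bcl2l14 (ENSMUSG00000030200, BCL-G, a family member described in testis and in mucosal tissue) lies on the forward strand of chromosome 6, from 134346336 to 134388754 of NCBIM37. It had 48, 69 and 40 reads in WT mice 1 to 3 and 13, 13 and 7 reads in Trf2-/- mice 1 to 3. In CPM these were 1.67, 2.64 and 1.92 against 0.516, 0.557 and 0.442, so that the highest Trf2-/- mouse was far below the lowest WT mouse. Bcl2l14 was 4.03-fold lower in Trf2-/- testis (log2 fold change -2.01 ± 0.27, adjusted p = 0.00105), and leaving out any single mouse gave values between -2.16 and -1.80 with adjusted p of at most 0.00684. Being under 10 reads in 1 mouse, it was not tested under a filter of 10 reads in every mouse.

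Bcl2l12 (ENSMUSG00000003190, a gene whose protein is reported to restrain caspases and p53) lies on the reverse strand of chromosome 7, from 52246592 to 52254082 of NCBIM37. It measured 78.4, 75.8 and 74.5 CPM in WT and 55.4, 52.4 and 48.9 CPM in Trf2-/- testis. These values did not overlap, and the level fell by 31.4% (log2 fold change -0.54 ± 0.06, adjusted p = 0.000522). Its exons share 28.9% of their bases with the weak transcript Gm15545 and 4.45% with Irf3, both on the opposite strand and with log2 fold changes of 0.20 and 0.23. Bcl2l13, a mitochondrial outer membrane protein linked to mitophagy, stood at 55.8, 56.9 and 54.6 CPM in WT and at 45.2, 46.7 and 44.7 CPM in Trf2-/- mice and did not overlap. It fell by 18.4% (log2 fold change -0.29 ± 0.05, adjusted p = 0.00310). Bcl2l13 and Bid lie end to end on opposite strands of chromosome 6 and share 628 exon bases. Bcl2l15 measured 2.23, 1.72 and 2.16 CPM in WT and 1.39, 1.63 and 1.01 CPM in Trf2-/- testis, and its log2 fold change of -0.57 did not pass (adjusted p = 0.0826).

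**Figure D3:**
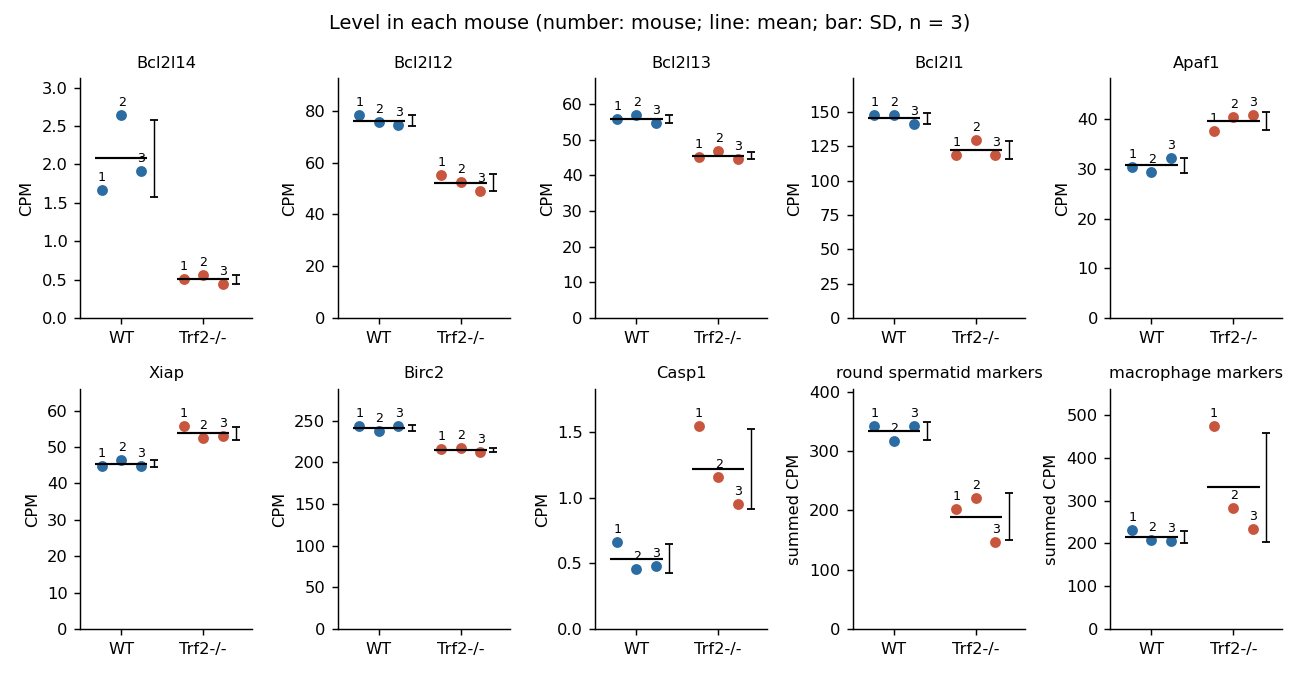
Level in each mouse, with a line at the mean and a bar for the SD (n = 3). Mice are numbered 1 to 3 in each genotype, and the labels give no pairing. Values are in CPM for 8 members and in summed CPM for the round spermatid and macrophage markers. Bcl2l14 is 0.442 to 0.557 CPM in Trf2-/- mice against 1.67 to 2.64 in WT mice, and Trf2-/- mouse 1 has the highest value of both Casp1 and the macrophage markers.

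Trf2 is related to the TATA-binding protein, but the study describes it as lacking selectivity for the TATA element. The sequences below are therefore a description and not a test of dependence on Trf2. The 250 bases before each of the 2 starts of Bcl2l14 and before the start of Bcl2l12 are shown. They were taken from RefSeq on GRCm38.p6, a later build than that of the gene positions above. They are printed 5′ to 3′ on the gene's strand, with any of 4 searched motifs in capitals: the TATA box TATAAA, the full cAMP response element (CRE) TGACGTCA, its shortened form TGACG, and the GC box GGGCGG, each searched on both strands. The first 2 lines are Bcl2l14 at chr6:134396079-134396328 and chr6:134414178-134414427, both on the forward strand, and the third is Bcl2l12 at chr7:44997580-44997829 on the reverse strand.
Bcl2l14 start 1: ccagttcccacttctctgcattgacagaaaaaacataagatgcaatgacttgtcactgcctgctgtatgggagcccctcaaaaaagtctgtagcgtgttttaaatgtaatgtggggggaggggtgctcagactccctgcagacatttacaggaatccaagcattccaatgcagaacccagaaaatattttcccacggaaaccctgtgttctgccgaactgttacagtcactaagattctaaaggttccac
Bcl2l14 start 2: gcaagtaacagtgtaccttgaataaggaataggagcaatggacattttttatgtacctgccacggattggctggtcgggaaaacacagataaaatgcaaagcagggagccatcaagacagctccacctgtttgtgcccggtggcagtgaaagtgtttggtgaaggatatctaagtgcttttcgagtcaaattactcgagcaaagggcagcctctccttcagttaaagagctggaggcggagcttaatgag
Bcl2l12: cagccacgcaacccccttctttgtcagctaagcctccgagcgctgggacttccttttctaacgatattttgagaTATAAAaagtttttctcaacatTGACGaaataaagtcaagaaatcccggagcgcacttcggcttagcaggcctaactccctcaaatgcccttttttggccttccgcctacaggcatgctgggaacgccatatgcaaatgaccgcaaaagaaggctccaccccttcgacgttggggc

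Neither window of Bcl2l14 held any of the 4 motifs. That of Bcl2l12 held TATAAA at position -176 and TGACG at -154, counted back from the start. Among the 47 windows of the 34 members found in the RefSeq table, 2 held the TATA box, 1 the full CRE, 12 the shortened CRE and 25 the GC box. Over all 32851 windows the shares were 12.4%, 1.55%, 17.8% and 32.7%, where every full CRE is also counted as a shortened one. A match is a run of letters and does not show that a factor binds there.

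The lower Bcl2l14 ran beside lower round spermatid markers. Of 10 listed markers of round spermatids, 9 were tested, and 7 were lower and none higher, with a median log2 fold change of -1.37. Over all tested genes 20.2% were lower and 11.2% higher. The summed level of the markers was 316 to 343 CPM in WT and 146 to 220 CPM in Trf2-/- mice, without overlap. Acrv1, an acrosomal protein gene, stood between 1.15 and 1.57 CPM in WT and had at most 3 reads in any Trf2-/- mouse. Tssk1 and Pgk2, both expressed late in the male germ line, had log2 fold changes of -1.41 and -1.37. Spermatocyte markers moved in both directions, with 5 of 10 lower and 3 higher, and 1 of 10 spermatogonial markers was higher. The part of the spermatid markers in the change of Bcl2l14, Bcl2l12 and Bcl2l13 was not tested.

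Apaf1, the scaffold of the apoptosome, was the member of the initiator group that rose. It measured 30.3, 29.4 and 32.2 CPM in WT and 37.5, 40.4 and 40.8 CPM in Trf2-/- testis, with no overlap, and rose by 29.1% (log2 fold change 0.37 ± 0.06, adjusted p = 0.00288). The 4 other genes of the group had positive log2 fold changes that did not pass. Scaled by library size alone, Casp8ap2 passed at 0.26 (adjusted p = 0.0198) and Casp9 at 0.21 (adjusted p = 0.0488). Casp9, which the apoptosome activates, stood at 30.5, 33.8 and 29.5 CPM in WT and 32.8, 33.5 and 35.5 CPM in Trf2-/- mice (log2 fold change 0.11, 95% interval -0.023 to 0.25). Casp8, the initiator of the death receptor route, stood at 12.5, 12.9 and 15.3 CPM in WT and 17.1, 14.8 and 14.3 CPM in Trf2-/- mice (log2 fold change 0.19, adjusted p = 0.214). Both sets of values overlapped. Casp2 ranged from 41.2 to 43.4 CPM and from 41.4 to 48.0 CPM (adjusted p = 0.385), and Casp8ap2, a large nuclear protein also known as FLASH, from 113 to 133 CPM and from 131 to 145 CPM (adjusted p = 0.0963).

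Casp6, an executioner caspase of the kind that cuts the cell's proteins once activated, measured 14.0, 12.4 and 12.8 CPM in WT and 11.9, 14.2 and 12.2 CPM in Trf2-/- mice. The genotypes overlapped, and its log2 fold change of -0.033 had a 95% interval of -0.24 to 0.17, which leaves out a change of 2-fold in either direction (adjusted p = 0.834). This is a transcript level, and caspase activity depends on cleavage of the protein, which was not measured.

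Casp1, which matures interleukin 1 beta in inflammation, was the single member to rise by at least 2-fold. It had 19, 12 and 10 reads in WT mice, or 0.662, 0.460 and 0.480 CPM, and 39, 27 and 15 reads in Trf2-/- mice, or 1.55, 1.16 and 0.948 CPM. Every Trf2-/- mouse was above every WT mouse, and Casp1 was 2.29-fold higher (log2 fold change 1.19 ± 0.29, adjusted p = 0.0137). The call did not hold without Trf2-/- mouse 1, WT mouse 2 or WT mouse 3, with log2 fold changes of 0.96, 1.09 and 1.13 and adjusted p of 0.0587, 0.0606 and 0.0508. Casp12 measured 2.16, 2.80 and 2.97 CPM in WT and 4.68, 3.09 and 3.22 CPM in Trf2-/- testis, again highest in Trf2-/- mouse 1, and its log2 fold change of 0.49 had an adjusted p of 0.112. Casp4 was too weak to be tested, with 9, 7 and 6 reads in WT and 16, 8 and 10 reads in Trf2-/- mice. These 3 genes are neighbours on the forward strand of chromosome 9, between 5298517 and 5373032 of NCBIM37. Casp14, a caspase of the skin, had 1 read in each of 2 mice.

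Macrophage markers moved with Casp1. All 11 had positive log2 fold changes with a median of 0.73, and 6 passed the test, where 11.2% of all tested genes were higher. No marker was at 0 in any mouse. The summed level of the markers was 206 to 231 CPM in WT and 234 to 475 CPM in Trf2-/- mice. The order of the Trf2-/- mice, with mouse 1 highest and mouse 3 lowest, was the same for Casp1 and for the summed level of these markers, though not for each marker. The reads counted in these mice had that order as well. In WT mice 1 to 3, Casp1 was at 0.662, 0.460 and 0.480 CPM and the summed markers at 231, 207 and 206 CPM, not in the same order. Lyz2, which encodes lysozyme, stood at 25.3, 21.8 and 23.2 CPM in WT and at 104, 37.3 and 37.9 CPM in Trf2-/- mice. Csf1r and Emr1, a receptor and a surface protein of macrophages, had log2 fold changes of 0.59 and 0.99. How many of the 11 passed depended on the mice: 3 without Trf2-/- mouse 1, 10 without Trf2-/- mouse 3, 2 without WT mouse 1, and none without WT mouse 2 or without WT mouse 3. Markers of T and NK cells, B cells and neutrophils were mostly too weak to test, with 2 of 10, 1 of 5 and 1 of 7 tested. The part of macrophages in the change of Casp1 was not tested.

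The inhibitor of apoptosis genes split in direction. Birc2 (cIAP1), the most abundant member per length, measured 243, 238 and 244 CPM in WT and 216, 217 and 212 CPM in Trf2-/- mice. It fell by 10.9% without overlap (log2 fold change -0.17 ± 0.04, adjusted p = 0.0135), and with library size as the only scaling its log2 fold change was -0.072 and did not pass. Birc3 (cIAP2), its neighbour on chromosome 9, measured 9.83, 9.81 and 8.25 CPM in WT and 12.5, 10.8 and 9.86 CPM in Trf2-/- mice, with a log2 fold change of 0.25 that did not pass (adjusted p = 0.148), and 0.35 with an adjusted p of 0.0485 under library size alone. Xiap, a direct inhibitor of caspases, stood at 44.8, 46.4 and 44.8 CPM in WT and at 55.8, 52.5 and 52.97 CPM in Trf2-/- testis. It was higher in every Trf2-/- mouse and rose by 18.6% (log2 fold change 0.25 ± 0.05, adjusted p = 0.00841). Birc6, a giant ubiquitin ligase also known as BRUCE, measured 330.2, 333 and 362 CPM in WT and 396, 379 and 412 CPM in Trf2-/- mice. It rose by 15.8% (log2 fold change 0.21 ± 0.05, adjusted p = 0.0162), and its call was lost without Trf2-/- mouse 1, WT mouse 1 or WT mouse 2, with adjusted p from 0.0580 to 0.0755. Birc7 had at most 2 reads in any mouse.

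The death receptor Fas was weak and overlapped, at 0.871, 1.30 and 0.768 CPM in WT and 1.19, 0.729 and 0.759 CPM in Trf2-/- mice, with a wide 95% interval of the log2 fold change from -0.72 to 0.48. Its ligand Fasl had 1, 4 and 3 reads in WT and 3, 0 and 4 reads in Trf2-/- mice and was not tested. A difference in either gene was therefore hard to detect at this depth, where 3 reads correspond to 0.105 to 0.144 CPM in WT and 0.119 to 0.190 CPM in Trf2-/- mice, by counting error alone.

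Other genes of the same routes were read from 6 lists. Each count stands beside the shares over all tested genes, 20.2% lower and 11.2% higher. Of 16 further genes of death receptor signalling tested, 1 rose and 1 fell, and their median log2 fold change was 0.089. Without Trf2-/- mouse 2 there were 2 that rose. Traf2, an adaptor of TNF receptors, rose (log2 fold change 0.31, adjusted p = 0.00240) and Daxx, a FAS-binding protein and histone chaperone, fell (-0.31, adjusted p = 0.00311). The adaptor Fadd, at 0.16, did not pass, and the caspase 8 inhibitor Cflar, at 0.27, had an adjusted p of 0.0526, and 0.0142 under library size alone.

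Of 23 tested genes of mitochondrial release and partners of BCL2 proteins, 8 fell and 1 rose, and scaled by library size alone 6 fell and 7 rose. The shares of all tested genes were 20.2% lower and 11.2% higher, and 15.9% and 25.2% under library size alone. None of the 23 rose without WT mouse 1, a fit in which 4.57% of all tested genes were higher. The median log2 fold change of the list was -0.053. Vdac2, an outer membrane channel that binds BAK1, measured 479.7, 455 and 467 CPM in WT and 309.7, 323 and 277 CPM in Trf2-/- mice, with a log2 fold change of -0.62 ± 0.06 (adjusted p = 0.00039). Mtch2, the membrane receptor of BID, fell (log2 fold change -0.28), as did Bnip1 (-0.31) and Diablo (-0.22), whose product relieves caspases of their inhibitors. Mtch2 and Diablo were at -0.18 and -0.13 under library size alone and still passed. The somatic and testis cytochrome c genes did not pass: Cycs had 0.14 on the log2 scale (adjusted p = 0.128), or 0.24 with an adjusted p of 0.0242 when scaled by library size alone, and Cyct, the testis form, -0.059, which was 0.035 under that scaling. Cycs has processed copies elsewhere in the genome, so its counts are uncertain. The BH3-only gene Hrk was weak, between 0.357 and 0.632 CPM over all mice.

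In the p53 list 4 of 16 tested genes rose and 1 fell, with a median log2 fold change of 0.10. Of all tested genes 11.2% were higher and 20.2% lower. Without WT mouse 1 or WT mouse 2 the number of the list that rose was 2, where 4.57% and 4.54% of all tested genes were higher. Without Trf2-/- mouse 3 or WT mouse 3 the number that fell was 2, where 19.3% and 16.7% of all tested genes were lower. Trp53 itself measured 16.2, 18.1 and 18.7 CPM in WT and 22.7, 21.2 and 24.5 CPM in Trf2-/- mice, without overlap (log2 fold change 0.37, adjusted p = 0.0126). Its targets differed in direction: Ccng1 rose (0.34), Ei24 rose (0.26) and Zmat3, an RNA-binding target, fell (-0.77 ± 0.12, adjusted p = 0.00174). Zmat3 was lower in all Trf2-/- mice, at 11.9 to 16.0 CPM against 22.4 to 26.9 CPM in WT. The call of Trp53 was lost without WT mouse 1 (adjusted p = 0.0564) and that of Ei24 without WT mouse 2 (adjusted p = 0.0526).

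Among 11 tested caspase substrates and genes of the execution phase, 1 fell and 1 rose, or 1 and 4 when scaled by library size alone. The shares of all tested genes were 20.2% lower and 11.2% higher, or 15.9% and 25.2% under that scaling. Xkr8, the scramblase that exposes phosphatidylserine once caspases have cut it, measured 48.4, 44.7 and 47.3 CPM in WT and 22.1, 27.3 and 18.3 CPM in Trf2-/- mice (log2 fold change -1.04 ± 0.12, adjusted p = 0.000605). Gsn, an actin-severing caspase substrate abundant in somatic cells, rose (0.71 ± 0.11, adjusted p = 0.00191). In the list of 17 genes for clearance of dying cells, 1 fell and 3 rose, with 1 rising without WT mouse 1 or WT mouse 2 and 5 without Trf2-/- mouse 3. The engulfment receptor Megf10 was at 4.56 to 5.54 CPM in WT and 1.64 to 2.44 CPM in Trf2-/- mice (log2 fold change -1.23, adjusted p = 0.00143), while the Sertoli cell and macrophage receptors Mertk (0.35) and Axl (0.18) rose. Under library size alone Axl was at 0.27. The call of Axl was lost without Trf2-/- mouse 2, WT mouse 1 or WT mouse 2. Of 9 tested Sertoli cell markers 4 rose and none fell, at a median log2 fold change of 0.19, and 1 of 8 Leydig and 1 of 6 peritubular markers rose. The share of all tested genes higher was 11.2%. Without WT mouse 1 only 1 of the Sertoli cell markers passed, and without Trf2-/- mouse 1 there were 2. In those fits 4.57% and 6.86% of all tested genes were higher. The part of the Sertoli cell markers in the rise of Gsn, Mertk and Axl was not tested.

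Inflammasome genes were read beside all tested genes, of which 11.2% were higher and 20.2% lower. Of the 10 inflammasome genes tested, 2 rose and none fell, with a median log2 fold change of 0.30. These were Gsdmd, the pore-forming substrate of caspase 1 (0.67 ± 0.20, adjusted p = 0.0290), and Naip6 (0.95 ± 0.31, adjusted p = 0.0471), a sensor gene with near-identical copies whose counts are therefore uncertain. Gsdmd measured 7.38, 4.89 and 6.83 CPM in Trf2-/- mice 1 to 3, and Naip6 1.31, 0.729 and 0.948 CPM. Like the summed macrophage markers, both were highest in mouse 1. They were lowest in mouse 2, whereas the summed markers were lowest in mouse 3. The part of macrophages in the rise of Gsdmd and Naip6 was not tested. None of the 10 passed without Trf2-/- mouse 1, WT mouse 1 or WT mouse 2. In these fits 6.86%, 4.57% and 4.54% of all tested genes were higher. The adjusted p of Gsdmd and Naip6 was above the threshold without Trf2-/- mouse 1 (adjusted p = 0.102 and 0.184). The same held with the replicate number as a block (adjusted p = 0.0562 and 0.0597), and Naip6 did not pass DESeq2's Wald test (adjusted p = 0.149).

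**Figure D4:**
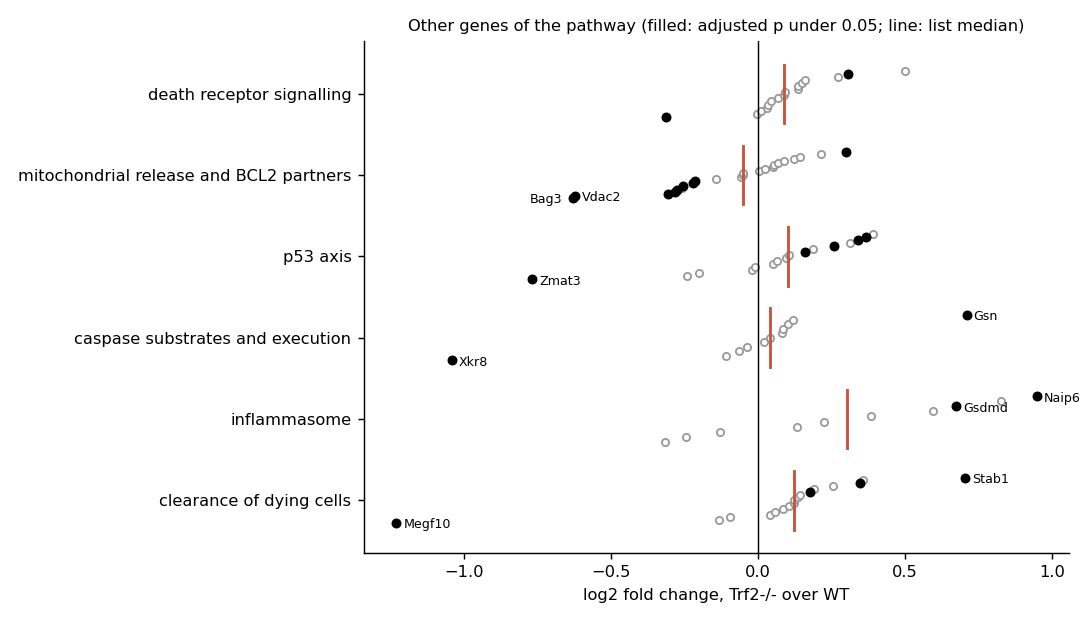
Log2 fold change of Trf2-/- over WT testis (horizontal axis) for the tested genes of 6 lists of related genes, each point a gene (3 mice per genotype) and each vertical line a list's median. Filled points passed an adjusted p under 0.05, and genes past it with a log2 fold change over 0.6 in size are named. The medians run from -0.053 for mitochondrial release to 0.30 for the inflammasome, and Megf10 (-1.23) and Xkr8 (-1.04) lie farthest to the left.

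Over the wider set of genes that the deposited table annotates to the apoptotic process, 375 were tested, of which 63 fell and 54 rose, or 31.2% in all against 31.4% of all tested genes. Genes annotated to its positive regulation gave 16 lower and 37 higher of 176, or 30.1% in all, with a median log2 fold change of 0.12. Those annotated to its negative regulation gave 34 lower and 51 higher of 254, or 33.5% in all, also with a median of 0.12. Among all tested genes 20.2% were lower and 11.2% were higher. The counts of higher genes leaned on single mice: leaving out Trf2-/- mouse 1, WT mouse 1, WT mouse 2 or WT mouse 3 gave 31, 23, 18 and 30 for the apoptotic process and 20, 16, 17 and 22 for its positive regulation. For negative regulation, 22 were higher and 27 lower without WT mouse 1. Without WT mouse 2 there were 21 higher and 28 lower, so that the balance turned in both fits. Over all tested genes the higher went from 1889 to 787 and 780 in these fits, and the lower from 3423 to 2626 and 2690. Those higher numbered 1174 without Trf2-/- mouse 1 and 1168 without WT mouse 3. Scaled by library size alone, the apoptotic process had 38 lower and 123 higher, its positive regulation 12 and 69, and its negative regulation 26 and 97. Under that scaling 15.9% of all tested genes were lower and 25.2% higher.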

How the data were processed

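Testis RNA of 3 WT and 3 Trf2-/- males was sequenced at postnatal day 21. Per the labels and the submitters' processing notes, libraries were stranded, depleted of ribosomal RNA and sequenced as single-end reads on an Illumina HiSeq2500. The notes list CASAVA 1.8.2, TopHat2 2.0.10, Bowtie2 2.1.0, HTSeq 0.5.4p3, DESeq2 1.0.19 and the build mm9 (NCBIM37). The strand setting of counting and the annotation release are not given in the sources used here. The authors deposited raw counts of reads per gene for each mouse, without normalization, and those were analysed. A further 12 columns of the table hold the authors' normalized values for each mouse and were left aside. Lengths and process terms are those the authors deposited, and exon overlaps from an annotation of the same build.

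Genes were kept with filterByExpr of edgeR 4.0.16 (R 4.3.3, limma 3.58.1), scaled with TMM factors and compared with glmQLFit and glmQLFTest over all 6 mice, with no covariate, adjusting by Benjamini-Hochberg across all 16924 genes tested, which held 99.91% of the reads. A call is an adjusted p under 0.05. Standard errors came from the log2 fold change and the F statistic, and 95% intervals are 1.96 standard errors to either side. These intervals are approximate and somewhat narrower than the quasi-likelihood test implies. That of Bmf, from 0.030 to 0.49, left out 0 while the unadjusted p of that test was 0.0545. The biological coefficient of variation was 0.0838. The study gives 3 independent biological replicates per genotype. Labels name no batch.

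The members and all lists were chosen with earlier results of these data known, so no list was tested. Named were all members past the threshold, all untested members, 20 core members whatever their result (2 of them are not reported here), the 3 list genes of smallest adjusted p without overlap between genotypes, 7 pathway genes whatever their result, and up to 3 markers per list. The other members were named after their values were seen. Of the list genes, 5 had no match by symbol or synonym in the table. Alternatives were DESeq2's size factors, library size alone, the Wald test of DESeq2 1.42.0, 2 other filters, a block for replicate number, leaving out single mice, and an adjusted p under 0.01. On simulated counts for 16924 genes of the comparison of WT with Trf2-/- testis, edgeR called 74 of 100 genes changed by a log2 fold change of 0.7, 99 of 100 changed by 1.5, and 9 of 16724 unchanged ones. The changed genes were drawn without the weakest genes, and were a far smaller share than the 31.4% called in these data. Changes under 0.7, such as those of most members called, were not simulated. These counts therefore do not show how often such members would be called. Within a genotype, chi-square over its degrees of freedom was at least 3.32 for every pair of mice, so no library was counted as a duplicate.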

Additional observations from a re-analysis of the deposited data

How the results depend on the processing

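The counts of members lower at an adjusted p under 0.05 stayed within 1.5 times the value reported under every alternative run. The count of members higher, 6, became 12 with library size alone and 2 at an adjusted p under 0.01. With each mouse left out it was 2 to 6, the lowest without WT mouse 2. The share of all tested genes higher was 11.2% in the reported fit, 25.2% with library size alone and 4.54% without WT mouse 2. The median log2 fold change of the members, 0.11, was 0.20 with library size alone and 0.060 to 0.15 with each mouse left out. No member was down-regulated at 2-fold when 10 reads were required in every mouse, since Bcl2l14 was then not tested. None was up-regulated at 2-fold at an adjusted p under 0.01, and with each mouse left out there were 0 to 1. DESeq2's size factors, its Wald test and the absence of a filter each called the same 11 members as the reported fit. Signs turned only for genes that did not pass: Mcl1 (-0.0049 to 0.068 with each mouse left out), Bid (-0.039 to 0.076), Bik (-0.23 to 0.0048), Fas (-0.42 to 0.14), Casp6 (-0.13 to 0.021, and 0.062 with library size alone) and Cyct (0.035 with library size alone). Replicate numbers are shared by the genotypes, and the labels do not say whether they pair mice. Deviations of same-numbered mice had correlations from -0.10 to -0.031. With 3 mice per genotype these cannot exclude a pairing or a shared batch. The reads counted fell from mouse 1 to mouse 3 in both genotypes. The fit with a replicate block called 10 members, losing Bcl2l11 (log2 fold change 0.29, adjusted p = 0.0724). Small changes are limited by depth and by 3 mice a genotype.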
